A study of Drosophila melanogaster with 2 samples.

Results

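Genes of mitosis, the spindle and cytokinesis carry a cell through the division of its chromosomes and its body, and 44 of them were followed by name in poly(A) RNA of the posterior midgut of Drosophila melanogaster. The list runs from the cyclins that start mitosis to the proteins that cut the cell apart, and its rule takes genes by name, with no threshold on a measured value. Of the 44 listed genes, 43 had a row in the deposited transcript table, out of 13816 genes kept there. Cohesin's cleaved subunit, vtd, was not analysed here. After the filter on low counts, 42 of the 43 stood among the 8137 genes tested, and pim, the fly securin, did not.

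The posterior midguts came from wild type Oregon R females raised at 25 degrees Celsius and aged 45 days or 5 days, with 3 biological replicates per age, each RNA sample being drawn from pooled guts. The study asked what differs between young and old guts. Its table calls the sets treatment and control, with 3 libraries each, and which set was the older is not given in the sources used here. Should control be the younger set, the usual choice, a rise in treatment is a rise at 45 days. All animals were wild type, so there was no targeted gene to check. P-values measure only the spread between such pools.

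In the fly midgut, intestinal stem cells are the main dividing cells. They give rise to enteroblasts, which become absorptive enterocytes that enlarge by copying their DNA without dividing, and to hormone-making enteroendocrine cells. Entry into mitosis follows when the phosphatase String activates Cdk1 bound to a mitotic cyclin, the kinases Polo and the Auroras then build the spindle, and the anaphase-promoting complex ends mitosis by marking securin and the cyclins for destruction.

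Libraries held 9581959 to 18001953 reads over genes. Libraries of the same set differed by more than counting noise, with a chi-square over its degrees of freedom between 2.37 and 7.27, and libraries of different sets by far more, between 99.7 and 183. Members were thinly covered. Their reads over all 6 libraries ran from 56 for pim to 3026 for tws, with a median of 439, against a median of 1754 over all genes tested. Levels below are CPM (reads scaled to a common library total), scaled between libraries by the trimmed mean of M-values (TMM), and a gene is called where edgeR's quasi-likelihood test gave a Benjamini-Hochberg adjusted p under 0.05 over all genes tested.

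Mitotic genes were mostly higher in treatment and none was called lower. Of the 42 tested members, 33 rose (78.6% of those tested), where 25.0% of all genes tested were called higher, 24.1% were called lower and 49.2% were called in either direction. The 3 libraries of treatment all lay above the 3 of control for 32 members (76.2%), against 28.4% of all genes tested, and control lay wholly above treatment for 0 members. The changes were modest. A rise of at least 2-fold (log2 fold change of at least 1 before rounding) was called for 10 members, where 2.41% of all genes tested rose that far, and Cdk1, at 0.997, fell just short of it. The median log2 fold change of the 42 was 0.72 (1.65-fold), between -0.14 for Mis12 and 1.52 for sub, beside a median of 0.01 over all genes tested. With scaling by total reads alone these medians were 0.93 for the members and 0.22 for all genes, and tws (0.08), Bub1 (0.11) and Mis12 (0.07), the 3 members below 0 with TMM, came out above it. Under that scaling 38 members rose and 0 fell, while over all genes 4127 rose and 1076 fell, against 2038 and 1962 with TMM. Of the 42, 5 passed the low-count filter in fewer than 3 control libraries (aurA, thr and sub in 2, Spc25 in 1 and cid in 0) and so were likelier to be kept where treatment was high. All 5 were among the 10 members called at least 2-fold higher and among the 32 with separated libraries, and sub, with the largest rise, was one of them. Those counts therefore lean in part on the filter. Of the 37 that passed in every control library, 28 were called. In RNA from a whole tissue, fewer cells of a type and less RNA per cell cannot be told apart.

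**Figure D1:**
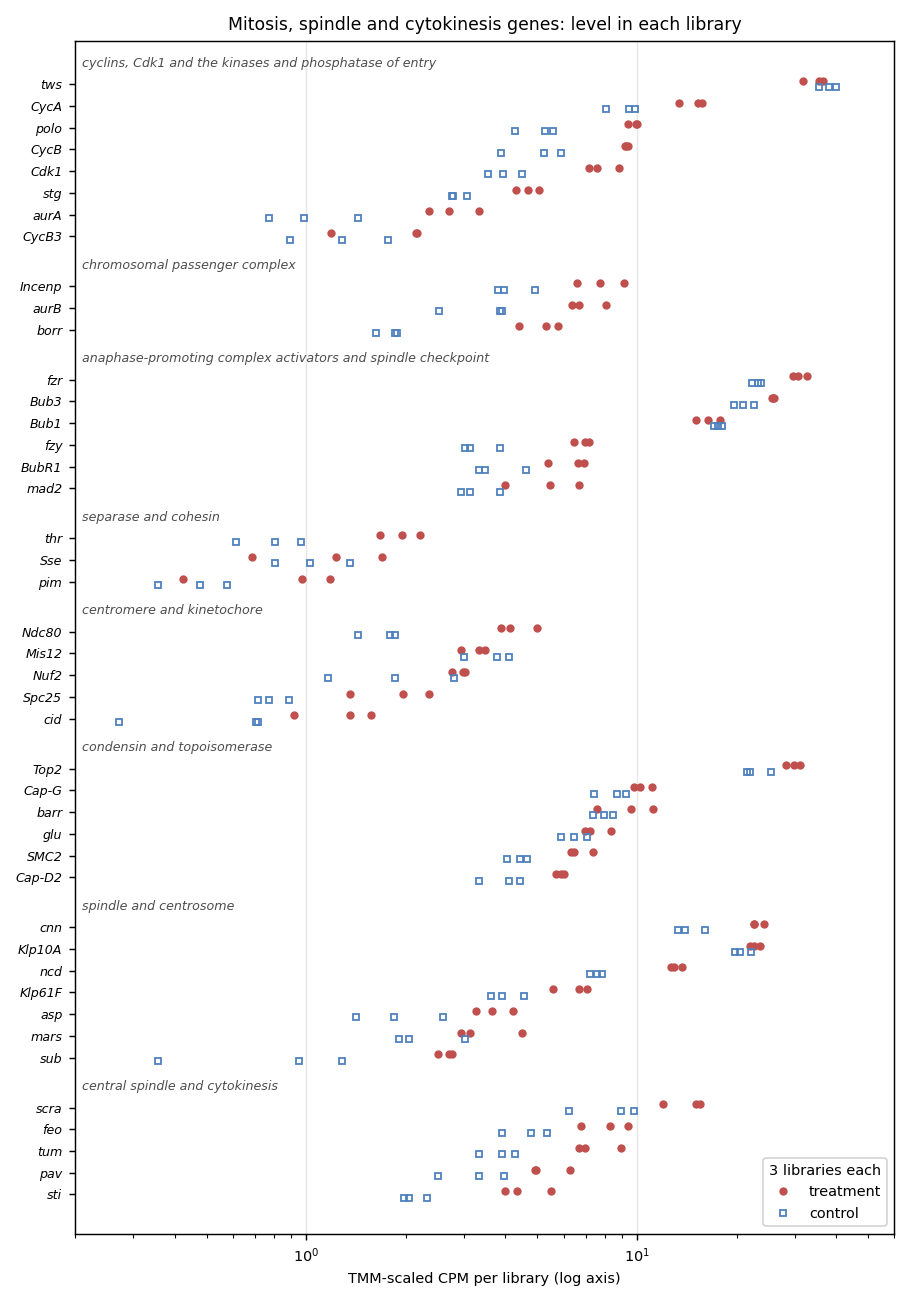
TMM-scaled CPM on a log axis for the 43 members with a row, grouped by role; filled circles are the 3 treatment libraries and open squares the 3 control libraries, 1 point per library. The filled circles lie to the right of the open squares without overlap for 32 of the 42 tested members, while tws, Bub1 and Mis12 show the sets mixed.

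Among the genes of mitotic entry, 6 of 8 rose and 2 did not pass the test, with a median log2 fold change of 0.81. Cdk1, the kinase that starts mitosis (listed as cdc2; 2L, 10384739 to 10386263, on the table's own coordinates, whose build is not named), stood at 8.84, 7.16 and 7.55 CPM in the treatment libraries, against 3.93, 4.49 and 3.54 CPM in the control libraries (log2 fold change 1.0, SE 0.15, adjusted p = 1.24e-06). Its rise was just under 2-fold and its lowest treatment library lay well above its highest control library. CycB, the cyclin that binds Cdk1 through metaphase, had 9.24, 9.22 and 9.42 CPM in treatment and 5.89, 5.25 and 3.88 CPM in control (0.91, SE 0.14, adjusted p = 2.31e-06). For CycA, the cyclin destroyed first in mitosis, the values were 15.7, 15.3 and 13.4 CPM in treatment and 8.04, 9.48 and 9.88 CPM in control (0.69, SE 0.10, adjusted p = 1.14e-06). Both cyclins were separated in every library, CycB with a narrow spread in treatment (SD 0.108 CPM) and a wider one in control (SD 1.03 CPM). Counts for CycB3, the cyclin of late mitosis, were low, and its 2.15, 2.16 and 1.19 CPM in treatment overlapped the 0.893, 1.28 and 1.77 CPM in control (0.47, SE 0.28, adjusted p = 0.173).

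The phosphatase gene stg, whose product String removes the inhibitory phosphates from Cdk1, had 5.06, 4.31 and 4.67 CPM in treatment, against 2.77, 2.76 and 3.07 CPM in control (0.72, SE 0.17, adjusted p = 0.000806). The mitotic kinase gene polo reached 9.40, 10 and 9.93 CPM in treatment and 5.27, 4.29 and 5.59 CPM in control (0.95, SE 0.13, adjusted p = 3.52e-07). The aurA transcript, for the centrosomal Aurora kinase, was at 2.35, 3.33 and 2.71 CPM in treatment and 0.982, 0.769 and 1.43 CPM in control (1.35, SE 0.26, adjusted p = 7.49e-05). None of these 3 genes had overlapping sets, and aurA, at 2.55-fold, rose furthest of the entry genes. Unlike them, tws, a regulatory subunit of the phosphatase PP2A that reverses Cdk1 phosphorylation at mitotic exit, was not called. It had 35.4, 31.8 and 36.5 CPM in treatment and 35.5, 38.1 and 40.0 CPM in control, overlapping sets with a log2 fold change of -0.13 (SE 0.07, adjusted p = 0.133).

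All 3 genes of the chromosomal passenger complex, which corrects wrong spindle attachments and later moves to the midzone, rose (median log2 fold change 1.07). Expression of borr, the Borealin subunit (2L, 9251472 to 9253116), came to 4.39, 5.29 and 5.77 CPM in treatment, against 1.88, 1.86 and 1.63 CPM in control (2.82-fold, log2 1.5, SE 0.20, adjusted p = 1.18e-07). The kinase subunit, aurB (listed as ial), was at 8.07, 6.67 and 6.36 CPM in treatment and 3.84, 3.91 and 2.52 CPM in control (1.07, SE 0.17, adjusted p = 2.87e-06). The scaffold gene Incenp had 6.59, 7.75 and 9.16 CPM in treatment and 4.91, 3.97 and 3.81 CPM in control (0.88, SE 0.16, adjusted p = 2.04e-05). The sets stayed apart for each of the 3, and for borr the lowest treatment library was above every control library by more than the whole range of either set.

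Of the 6 genes for activators of the anaphase-promoting complex and for the spindle checkpoint, 5 rose and Bub1 was not called (median log2 fold change 0.56). The fzy product, the Cdc20 activator that starts anaphase, is used in mitosis, and its gene had 7.15, 6.47 and 6.96 CPM in treatment and 3.84, 3.01 and 3.13 CPM in control (1.07, SE 0.16, adjusted p = 9.27e-07). The Cdh1 activator gene fzr (listed as rap), used at mitotic exit, in G1 and in endocycles, had 30.7, 29.7 and 32.7 CPM in treatment and 23.7, 23.2 and 22.2 CPM in control (0.43, SE 0.07, adjusted p = 6.17e-06). Both sets of libraries were apart for either gene, and per kilobase of transcript fzr was the more abundant, at 11.6 CPM per kb in treatment and 8.63 in control beside 3.39 in treatment and 1.65 in control for fzy. The checkpoint gene BubR1 was at 6.90, 5.39 and 6.62 CPM in treatment and 3.48, 4.61 and 3.34 CPM in control (0.73, SE 0.16, adjusted p = 0.000349). For mad2, whose product holds Cdc20 inactive, 5.46, 6.67 and 3.99 CPM in treatment stood against 3.13, 3.84 and 2.93 CPM in control (0.68, SE 0.18, adjusted p = 0.00242). Its lowest treatment library only just cleared its highest control library. Bub3, the WD-repeat partner of BubR1 and Bub1, had the smallest rise of the 5, with 25.6, 25.7 and 26.0 CPM in treatment and 19.6, 22.5 and 20.9 CPM in control (0.29, SE 0.07, adjusted p = 0.00166). The checkpoint kinase gene Bub1 had mixed sets, with 16.4, 15.1 and 17.8 CPM in treatment and 18.1, 17.6 and 17.1 CPM in control (-0.09, SE 0.08, adjusted p = 0.379).

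Sister separation was read from 3 genes near the detection limit. The gene thr makes the regulatory partner of fly separase and had 2.20, 1.67 and 1.95 CPM in treatment, against 0.804, 0.961 and 0.613 CPM in control (2.48-fold, log2 1.31, SE 0.29, adjusted p = 0.000303). The protease gene Sse had 1.23, 0.686 and 1.7 CPM in treatment and 0.804, 1.03 and 1.36 CPM in control, so the sets overlapped (0.18, SE 0.32, adjusted p = 0.681). Securin, pim, was represented by 19, 12 and 5 reads in treatment, against 4, 9 and 7 reads in control, too few for the test. Per kilobase, thr was the lowest of the tested members, at 0.452 CPM per kb in treatment and 0.185 in control.

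Genes of the centromere and kinetochore, the chromosomal platform that grips spindle microtubules, were divided: 3 of 5 rose and 2 were not called (median log2 fold change 1.11). Within the microtubule-binding Ndc80 complex, Ndc80 (X, 13503698 to 13506009) had 3.88, 4.12 and 5.00 CPM in treatment and 1.79, 1.86 and 1.43 CPM in control (2.53-fold, log2 1.34, SE 0.21, adjusted p = 2.03e-06). Its partner Spc25 had 2.35, 1.96 and 1.36 CPM in treatment and 0.714, 0.769 and 0.886 CPM in control (1.29, SE 0.30, adjusted p = 0.000515). Spc25 lies wholly within grsm on the opposite strand, a gene with 11968 reads beside the 115 of Spc25. Grsm itself rose slightly (log2 fold change 0.16, adjusted p = 0.00777). The overlap is one of genomic spans, shared exon sequence was not examined, and the strand setting of the counting is not given. Any part of grsm reads in the Spc25 count is therefore unknown. A further partner, Nuf2, was at 3.01, 2.75 and 2.97 CPM in treatment and 1.16, 1.86 and 2.79 CPM in control (0.55, SE 0.24, adjusted p = 0.0516). Only control library 3 reached the level of the treatment libraries for Nuf2, which passed without it (adjusted p = 0.00408). Over all settings tried, the log2 fold change of Nuf2 ran from 0.33 to 0.89 and its adjusted p up to 0.265. The centromeric histone gene cid gave 18, 16 and 16 reads in treatment, against 8, 11 and 4 reads in control, or 0.919, 1.57 and 1.36 CPM in treatment and 0.714, 0.705 and 0.272 CPM in control (1.11, SE 0.38, adjusted p = 0.0144). DESeq2 did not call cid (adjusted p = 0.0767), nor did edgeR when treatment replicate 2 (0.0674) or control replicate 3 (0.118) was left out. Mis12, of the inner kinetochore complex that carries Ndc80, had 3.32, 2.94 and 3.48 CPM in treatment and 4.11, 3.78 and 3.00 CPM in control (-0.14, SE 0.18, adjusted p = 0.562), with mixed sets.

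**Figure D2:**
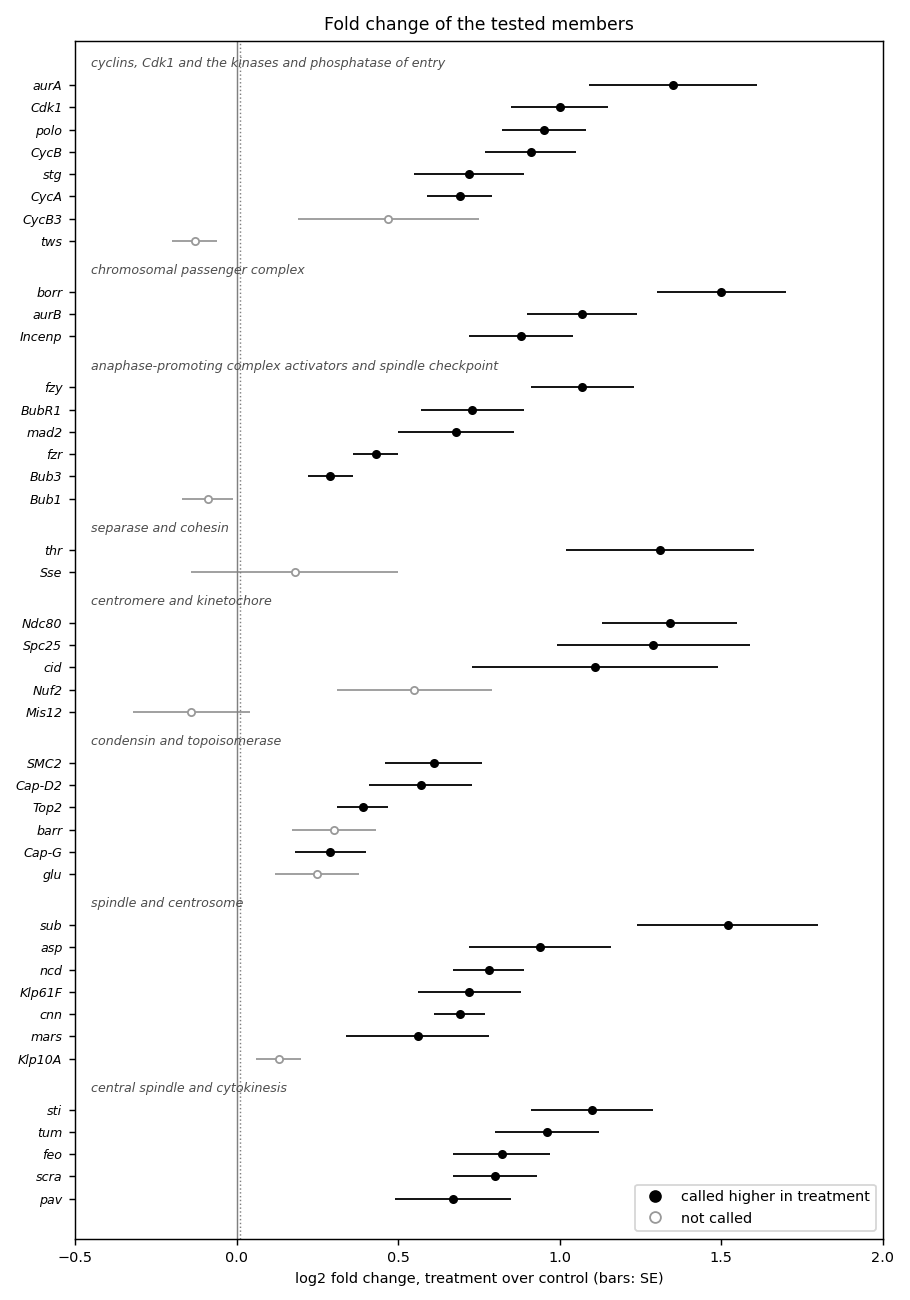
Log2 fold change of treatment over control for the 42 tested members, grouped by role, with bars of 1 SE; filled points were called higher and open points were not called, the solid line marks 0 and the dotted line the median of all genes tested, 0.01. The 33 filled points lie between 0.29 and 1.52, and the condensin and topoisomerase genes sit closest to 0 as a group.

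Among the genes of chromosome compaction, 4 of 6 rose, and their median log2 fold change of 0.35 was the lowest of the member groups. The condensin ATPase gene SMC2 had 6.33, 7.35 and 6.45 CPM in treatment, against 4.64, 4.04 and 4.43 CPM in control (0.61, SE 0.15, adjusted p = 0.000892). The condensin I subunit Cap-D2 (listed as CAP-D2) was at 6.03, 5.88 and 5.68 CPM in treatment and 4.11, 4.42 and 3.34 CPM in control (0.57, SE 0.16, adjusted p = 0.00308). Both were separated in all libraries, while Cap-G, another subunit, was separated by a smaller gap, with 11.1, 10.2 and 9.76 CPM in treatment and 7.41, 9.29 and 8.72 CPM in control (0.29, SE 0.11, adjusted p = 0.0342). The call of Cap-G was lost with DESeq2 (adjusted p = 0.181), and in edgeR without treatment replicate 1 (0.211), control replicate 1 (0.173) or control replicate 3 (0.0624). The other 2 subunits were not called. The kleisin gene barr had 11.2, 7.55 and 9.59 CPM in treatment and 8.48, 7.37 and 7.97 CPM in control (0.30, SE 0.13, adjusted p = 0.0512). It passed without treatment replicate 2 (adjusted p = 0.00722), but over all settings tried its log2 fold change ran from 0.13 to 0.51 and its adjusted p up to 0.53. The SMC4 gene, glu, had 8.33, 6.96 and 7.21 CPM in treatment and 7.05, 5.89 and 6.47 CPM in control (0.25, SE 0.13, adjusted p = 0.129), so the partners SMC2 and glu, which pair in a single ring, fell on different sides of the threshold. Whether their changes differ was not tested. Top2, the topoisomerase that untangles sister DNA, had 31.1, 29.9 and 28.3 CPM in treatment and 25.5, 21.5 and 21.9 CPM in control (0.39, SE 0.08, adjusted p = 7.1e-05).

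Spindle and centrosome genes rose in 6 of 7 cases (median log2 fold change 0.72). The largest rise among all members was in sub, a kinesin-6 that bundles spindle microtubules, with 2.50, 2.75 and 2.71 CPM in treatment and 0.357, 1.28 and 0.954 CPM in control (2.86-fold, log2 1.52, SE 0.28, adjusted p = 3.89e-05). The kinesin-14 gene ncd, whose motor focuses spindle poles, reached 12.7, 13.7 and 12.9 CPM in treatment and 7.23, 7.82 and 7.56 CPM in control (0.78, SE 0.11, adjusted p = 1.83e-07). For Klp61F, the kinesin-5 that pushes the poles apart, the libraries gave 7.05, 5.59 and 6.70 CPM in treatment and 4.55, 3.91 and 3.61 CPM in control (0.72, SE 0.16, adjusted p = 0.000275). These 3 motors were separated between the sets, but Klp10A, a kinesin-13 that takes microtubules apart in interphase too, was not. It had 23.6, 21.9 and 22.6 CPM in treatment and 19.8, 20.5 and 22.1 CPM in control (0.13, SE 0.07, adjusted p = 0.145).

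At the centrosome, cnn, the scaffold that gathers material around the centrioles, had 24.2, 22.5 and 22.6 CPM in treatment and 14.0, 13.3 and 16.0 CPM in control, with the smallest adjusted p of the members (0.69, SE 0.08, adjusted p = 2.44e-08). The pole-focusing gene asp was at 3.27, 4.22 and 3.65 CPM in treatment and 2.59, 1.41 and 1.84 CPM in control (0.94, SE 0.22, adjusted p = 0.0006). Both had separated sets. The spindle-stabilising gene mars was the only called member whose sets overlapped, with 3.12, 2.94 and 4.50 CPM in treatment and 2.05, 3.01 and 1.91 CPM in control (0.56, SE 0.22, adjusted p = 0.0329). Its call was lost with DESeq2 (adjusted p = 0.130), and in edgeR without treatment replicate 3 (0.203), control replicate 1 (0.103) or control replicate 3 (0.155).

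The 5 genes of the central spindle and cytokinesis all rose, by 0.67 to 1.1 on the log2 scale (median 0.82). The GTPase-activating gene tum and the kinesin gene pav together make centralspindlin, the complex that places the cleavage furrow. Values for tum were 6.95, 8.92 and 6.70 CPM in treatment, against 4.29, 3.91 and 3.34 CPM in control (0.96, SE 0.16, adjusted p = 5.86e-06). Those for pav were 4.95, 6.27 and 4.92 CPM in treatment and 2.50, 3.33 and 3.95 CPM in control (0.67, SE 0.18, adjusted p = 0.00205). Both partners were separated, with the narrower gap in pav. The microtubule bundler feo, the fly PRC1, had 8.27, 9.41 and 6.79 CPM in treatment and 5.36, 3.91 and 4.77 CPM in control (0.82, SE 0.15, adjusted p = 3.38e-05). Citron kinase, sti, which stabilises the midbody, had 4.34, 5.49 and 3.99 CPM in treatment and 2.05, 2.31 and 1.98 CPM in control (2.14-fold, log2 1.1, SE 0.19, adjusted p = 1.75e-05). Anillin, scra, the scaffold of the contractile ring, had 15.1, 12 and 15.5 CPM in treatment and 8.93, 6.22 and 9.81 CPM in control (0.80, SE 0.13, adjusted p = 2.88e-06). No library of control reached any library of treatment for these 3 genes either.

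Members differed widely in level, and fold changes were smaller on the whole among the more abundant. Per kilobase of transcript, the mean level over both sets ran from 0.318 CPM per kb for thr and 0.450 for asp up to 10.1 for fzr, 11.2 for tws and 19.0 for Bub3. Over the 42 tested members, Spearman's rho between that level and the log2 fold change was -0.37, given as a description, since the points share the same 6 libraries and the level also enters the fold change. Of the 8 members with over 1000 reads (CycA, tws, fzr, Bub1, Bub3, Top2, Klp10A and cnn), 5 rose and their median log2 fold change was 0.34, against 0.81 for the members with up to 1000 reads. Bub1, tws and Klp10A were thus among the members measured with the most reads, with SEs of 0.07 or 0.08 on the log2 scale.

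The span of 14 members overlapped another gene in the deposited coordinates, mostly on the opposite strand. The 28 tested members with no such neighbour held 21 called rises and a median log2 fold change of 0.77, and the 14 with one held 12 called rises and a median of 0.69. The part of neighbouring reads in these values was not tested. For Klp61F, which shares 458 bases with galene, and for Cap-D2, which shares 3 bases with CG7582, the neighbour fell (log2 fold change -0.72, adjusted p = 0.00125, for galene and -1.69, adjusted p = 1.63e-16, for CG7582) while the member rose. The overlap of glu with Nubp1 covered 424 bases, and Nubp1 held 3760 reads beside 585 for glu. Sem1, which shares 37 bases with Nuf2, held 6235 reads beside 205 and rose (log2 fold change 0.29, adjusted p = 7.08e-05), as grsm did beside Spc25. Heavily read neighbours that were not called included cact beside fzy (7669 reads), drk beside mars (5063 reads) and kri beside mad2 (2741 reads).

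Further genes of the same machinery were counted in 8 wider lists. Of their 107 genes, 102 had a row and 98 were tested. Of these, 32 rose (32.7%, beside 25.0% of all genes tested), 4 fell and 62 were not called, with a median log2 fold change of 0.22 and 3 rises of at least 2-fold. These counts moved with the processing, to 65 higher and 1 lower with total-read scaling and to 22 higher and 2 lower with DESeq2. A stricter filter, which kept fewer genes, gave 24 higher and 4 lower. There were 2 lower without treatment replicate 2 and 1 lower without control replicate 3. The difference between these shares and those of the members was not tested. Structural subunits of the anaphase-promoting complex and its ubiquitin-conjugating enzymes, listed together with the gene Rca1, had a median log2 fold change of 0.02. They ran from -0.46 for APC7, which was not called, to 0.44 for vih. Of the 11, 1 rose, the E2 enzyme gene vih, at 28.3 ± 0.786 CPM in treatment and 20.9 ± 2.27 CPM in control (SD, n = 3 each). Cohesin and condensin genes outside the members likewise had 1 of 11 called, dalmatian, dmt, which protects cohesion (0.32), with a median of 0.08. Among 10 regulators of Cdk1 and PP2A, 3 rose. They were Cks30A, a small Cdk1-binding subunit of the germline and mitosis (3.40 ± 0.623 CPM in treatment, 1.25 ± 0.489 CPM in control; 2.84-fold, adjusted p = 8.24e-06), endos, whose product inhibits PP2A in mitosis (0.37), and Pp2A-29B, the PP2A scaffold (0.21).

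Kinetochore and checkpoint genes beyond the members rose in 4 of 14 cases (median 0.31), led by Spc105R, the KNL1 scaffold that recruits Bub proteins (2.68 ± 0.306 CPM in treatment, 1.26 ± 0.207 CPM in control; 2.17-fold, adjusted p = 0.000241), with cal1, the loader of the centromeric histone (0.41), and rod, a checkpoint gene of the outer kinetochore (0.45). Mitotic kinesins rose in 5 of 7 cases (median 0.53), among them the midzone motor Klp3A (0.54), neb, a kinesin of cytokinesis (0.42), and Klp67A (0.65), and Klp59C and Klp59D had 0 reads in all libraries. Of 16 tested genes of augmin and the γ-tubulin ring, which nucleate spindle microtubules, 4 rose (median 0.31), including gammaTub23C (0.58), Grip84 (0.43) and dgt5 (1.29). Both dgt5 (5, 11 and 6 control reads) and nod, among the called kinesins (5, 12 and 7), were below the low-count filter's level in every control library. They were kept through their treatment reads, and dgt5 is among the 3 wider-list rises of at least 2-fold. Of 12 centrosome and centriole genes, 3 rose, the microtubule stabiliser tacc (0.53), the centriole duplication gene ana2 (0.94) and its kinase SAK (0.23), while Cp190, which also binds chromatin insulators, fell by 0.18. Over all genes tested, 25.0% were called higher. The kinetochore, augmin and γ-tubulin, and centrosome lists were at or near that share, as were the Cdk1 and PP2A regulators above. Cytokinesis genes had the most calls, 11 of 17 higher and 3 lower (median 0.34). The myosin light chain gene sqh stood at 580.0 ± 17.7 CPM in treatment and 371.0 ± 10.1 CPM in control (0.65, adjusted p = 6.18e-14), Septin2 rose by 0.70 and ALiX by 0.50, while the membrane traffic genes nuf, sau and fwd fell by 0.68, 0.15 and 0.20. Most genes of this last list also serve non-dividing cells.

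**Figure D3:**
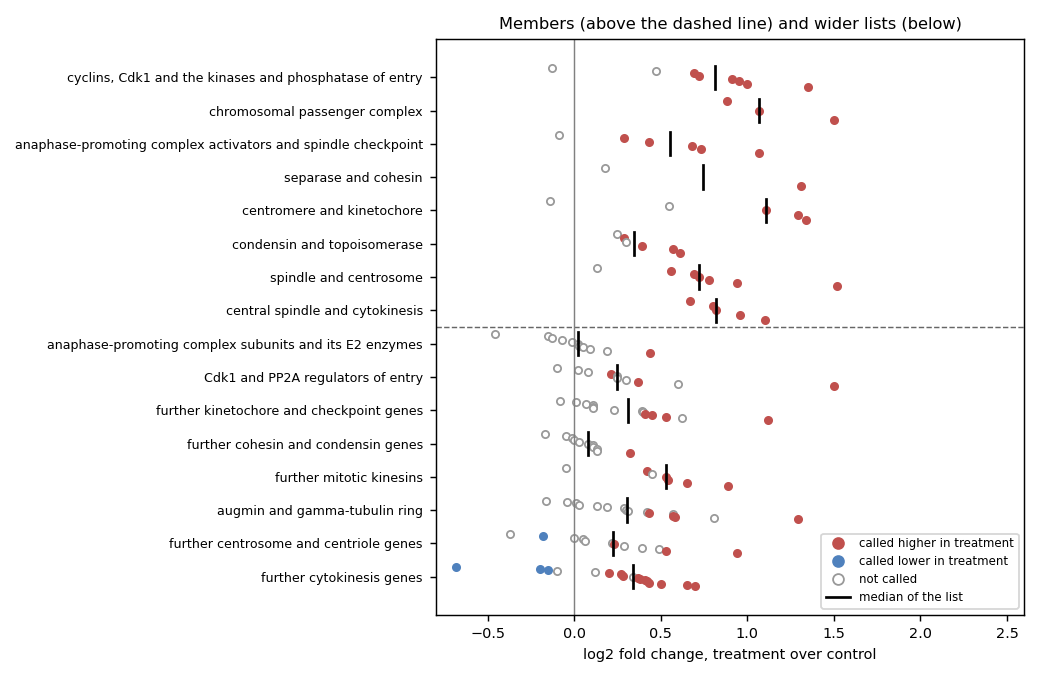
Log2 fold change of treatment over control for each tested gene, with the 8 member groups above the dashed line and the 8 wider lists below it; red points were called higher, blue points lower and open points not called, and the black bar is the list's median. Member medians run from 0.35 to 1.11 and those of the wider lists from 0.02 to 0.53.

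Summed over the 43 members, the level was 407, 392 and 399.7 CPM in the treatment libraries and 287, 286 and 288 CPM in the control libraries, 1.39 times as high in treatment with no overlap. Stem cell and enteroblast markers summed to 314, 312 and 317 CPM in treatment and 212, 209 and 206 CPM in control (1.5 times). Among these 13 markers, 11 were called higher and 0 lower, where 25.0% of all genes tested were called higher. The marker Su(H) was not called, but its control libraries all lay above treatment (2.69 ± 0.127 CPM in treatment, 3.10 ± 0.0582 CPM in control, SD). The ratio of the member sum to the marker sum was 1.3, 1.26 and 1.26 in treatment and 1.36, 1.36 and 1.40 in control. Abundant members that changed little, such as tws, weigh heavily in the member sum. By gene, the median log2 fold change was 0.72 for the tested members and 0.59 for these markers. Whether the 2 lists differ was not tested. Replication and S-phase genes were higher in 16 of 17 cases (median 0.89), with sums of 405, 396 and 408 CPM in treatment and 258, 259.6 and 276 CPM in control. Of 6 genes used in the enterocyte endocycle, 3 rose, CycE (0.91), dup (0.54) and Cdk2 (0.67), while E2f1, dap and geminin were not called. CycE, Cdk2 and E2f1 are also among the 17 replication and S-phase genes, so the 2 lists are not separate.

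Markers of other cell types also had called changes, where 49.2% of all genes tested were called in either direction. Visceral muscle markers summed to 1318, 1271 and 1309 CPM in treatment and 2395, 2238 and 2345 CPM in control, with 10 of 13 lower and 2 higher. Enteroendocrine markers summed to 389, 371 and 387 CPM in treatment and 545, 513 and 550.4 CPM in control, with 5 of 10 lower and 1 higher, and 5 of the 10 enterocyte markers were higher and 5 lower. Tracheal markers fell in 3 of 5 tested cases, and of 6 tested markers of the Malpighian tubule and hindgut 2 rose and 1 fell. Ovary, another dividing tissue, had 18 listed markers. Only 4 of them passed the count filter, and 3 of these rose (piwi, also active in gut stem cells, exu and gus). Among those that did not pass, Vm32E and dec-1 had 0 reads and osk had a single read, in treatment library 1. The treatment libraries held 8, 4 and 2 reads of vas, against 1, 7 and 0 in control. For aub they held 12, 7 and 8 reads, against 4, 5 and 3 in control. Of 4 tested hemocyte markers 2 rose and 1 fell, and He had 0 reads. The 2 that rose, lz (1, 7 and 4 control reads) and PPO1 (4, 5 and 5), were below the filter's level in every control library. They were tested only through their treatment reads, so this count leans on the filter. The part that these shifts have in the members' rises was not tested.

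**Figure D4:**
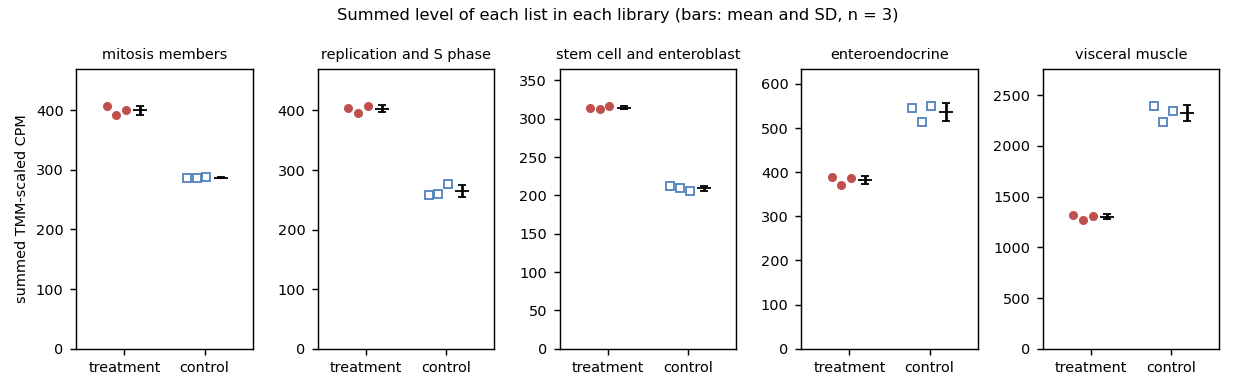
Summed TMM-scaled CPM of 5 gene lists in each library, with axes starting at 0; filled circles are treatment libraries, open squares control libraries, and the black bars show the mean and SD (n = 3). The member, replication and stem cell sums are higher in treatment, and the enteroendocrine and visceral muscle sums are lower in treatment.

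The authors' deposited table of gene-level results holds 4101 genes and includes 29 of the 43 members, all 29 with a positive sign. Its column description reads control over treatment, yet each of the 29 was higher in treatment in the test above, so the sign in the authors' deposited table runs as treatment over control for these genes. Of the 29 in the authors' deposited table, 28 had an adjusted p under 0.05, and mars had the largest, 0.0996. How its 4101 genes were picked is not given in the sources used here. If significance decided, these counts were largely fixed beforehand, so they are given as a description and not as independent support. The members fzr, BubR1, Cap-G and Top2, called higher above, were not among the 29. The log2 fold changes in the authors' deposited table were 1.43 for borr, 1.32 for sub, 1.24 for fzy, 1.20 for Ndc80 and 1.19 for aurA.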

How the data were processed

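The main table deposited by the authors holds whole-number counts of reads for 24047 transcripts, with 3 treatment and 3 control columns, per the file headers. Poly(A) libraries came from pooled posterior midguts, per the labels' protocols. DESeq, unversioned, appears in the submitters' processing notes. How reads were aligned and counted, and on which genome build, is not given in the sources used here. A second table deposited by the authors gives log2 fold changes and p-values for 4101 genes, quoted only where named. The standard errors in it, treated as a score, are the authors' own.

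Each of 13822 loci was represented by its most-read transcript, since transcripts of 1 gene share reads. Before that, 145 predicted transcripts were left out, and 6 loci with a taken symbol were dropped. Symbols came from NCBI gene IDs for 12820 loci. The counts were scaled by TMM, filtered with filterByExpr (minimum count 10, about 0.72 CPM) and tested over 8137 genes with the quasi-likelihood test of edgeR 4.0.16 in R 4.3.3, with Benjamini-Hochberg adjustment at 0.05. SE is the log2 fold change divided by the root of the F statistic. Library totals of 9581959 to 18001953 reads limit the precision of genes with few reads. On simulated data the procedure recovered 66% of changes of 1.3-fold, 82% of 1.5-fold, 93.8% of 2-fold and 100% of 3-fold. The changed genes were drawn from all genes tested, so the share for thinly read members is not known.

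Members and lists were chosen with earlier results of these data known. Every member is described, with up to 3 called genes per wider list by smallest adjusted p and any gene called against its list's direction; vas, osk and the other marker genes named were chosen after their values were seen. Alternatives were DESeq2 1.42.0, its size factors, total-read scaling, other filters, summed or longest transcripts, a replicate block and leaving out each library.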

Additional observations from a re-analysis of the deposited data

How the results depend on the processing

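Over 574 values of single members under the alternatives, 549 kept their direction and side of the threshold. Scaling by total reads moved the median of all genes to 0.22 and that of the members to 0.93. Under it 4127 genes rose and 1076 fell, 38 members rose, and 65 of the wider lists rose and 1 fell. Under that scaling Mis12 (0.07), Bub1 (0.11) and tws (0.08) turned positive, none being called on the main scaling, and glu, Klp10A, CycB3, barr and Nuf2 became called. Sse ran from -0.06 (without treatment replicate 3) to 0.38 as single libraries were left out. DESeq2's test called 30 members, losing mars, cid (adjusted p = 0.0767) and Cap-G, and called 22 wider-list genes higher and 2 lower. A stricter filter of 50 mean reads left 28 members, of which 23 rose, and 24 wider-list genes rose and 4 fell. Leaving out 1 library gave 31 to 33 members higher and 0 lower, a median of 0.67 to 0.76, 1828 to 1919 genes higher and 1735 to 1926 lower, and in the wider lists 27 to 34 higher and 1 to 4 lower (2 without treatment replicate 2, 1 without control replicate 3). The call of cid was lost without treatment replicate 2 or control replicate 3, and that of Cap-G without treatment replicate 1, control replicate 1 or control replicate 3. With the replicate number as a block, 2107 genes rose and 2011 fell, and 34 members rose. Same-numbered libraries had correlations of -0.02, 0.193 and 0.112, so the numbers, which the labels do not give, were not taken to pair samples. The cause of these differences was not tested. Of the settings that left out 1 library, pim passed the filter in 4, with an adjusted p of 0.0304 without treatment replicate 3, and of 0.230, 0.0959 and 0.167 without control replicate 1, 2 or 3.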

Other observations

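Some partners in the same complex or the same step moved by different amounts, here as ratios of per-kilobase levels for pairs chosen after their values were seen and therefore given with no test. The ratio of fzy to fzr, the mitotic to the later activator of the anaphase-promoting complex, was 0.307, 0.287 and 0.280 in treatment, against 0.214, 0.171 and 0.186 in control. The ratio of BubR1 to Bub1 was 0.330, 0.280 and 0.291 in treatment and 0.151, 0.206 and 0.153 in control. For Ndc80 over Mis12 it was 0.459, 0.550 and 0.565 in treatment and 0.171, 0.193 and 0.188 in control. For Cks30A over its sister gene Cks85A it was 0.293, 0.271 and 0.321 in treatment and 0.142, 0.164 and 0.0459 in control. In each pair the lowest treatment library lay above the highest control library.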
